A study of Mus musculus with 18 samples.

Results

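The NF-κB family genes Nfkb1, Nfkb2, Rel, Rela and Relb and the IκB family genes Nfkbia, Nfkbib, Nfkbie, Nfkbiz and Bcl3 were examined by name, and all 10 were found among the 22852 gene symbols of the count tables. They were followed in bone marrow-derived macrophages (BMDMs), which are macrophages grown from mouse marrow, in a study that asked how the platinum drug carboplatin alters tolerance to lipopolysaccharide (LPS), a component of the bacterial outer membrane. The 18 RNA-Seq samples fell into 6 groups of 3 biological replicates, all from female C57BL/6 mice with no genetic modification named, and the sources used here do not say how many animals gave each replicate. Unstimulated BMDMs received neither agent, and LPS-stimulated BMDMs received 10 ng/ml LPS without priming, for a time taken here to be the 3 h of the LPS-tolerant group because the sources used here give none of their own. LPS-primed BMDMs received 100 ng/ml LPS for 24 h, and LPS-tolerant BMDMs received the same priming, after which the medium was replaced by fresh medium with 10 ng/ml LPS for 3 h. The groups named LPS-primed with carboplatin and LPS-tolerant with carboplatin were given 25 µM carboplatin from 1 h before the priming LPS, with the drug present during priming, and were otherwise treated like their counterparts. Whether the drug was also in the fresh medium is not stated in the sources used here. A cultured population differentiated with L929-conditioned medium stands in for macrophages in tissue.

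NF-κB transcription factors are dimers built from a small set of related proteins, and LPS, sensed by TLR4, is a classical activator of them in macrophages. In resting cells the dimers are held in the cytoplasm by IκBα, IκBβ and IκBε, the products of Nfkbia, Nfkbib and Nfkbie, until the IκB kinase (IKK) complex marks these inhibitors for degradation. RelA (p65), c-Rel and RelB carry a domain that activates transcription, whereas Nfkb1 and Nfkb2 encode the precursors p105 and p100, which are shortened to the DNA-binding subunits p50 and p52 and which hold back other subunits while uncut. Nfkbiz and Bcl3 encode IκBζ and Bcl-3, nuclear members of the IκB family that bind p50 or p52 at DNA and tune transcription of chosen genes. Several of these genes are themselves targets of NF-κB, and Nfkbia is the textbook case of a negative feedback loop. The transcript levels below measure messenger RNA and not the amount, cleavage or location of these proteins.

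Promoter sequences were available in RefSeq for 7 of the 10 genes, from 250 bases before to 50 bases after the annotated start on build GRCm38.p6, an older build than the GRCm39 of the gene positions given further on. They are shown for Nfkbia, Nfkb2, Nfkbie and Bcl3, of which the transcripts rose by the most among the genes with an entry, and for Rela, of which the transcript rose by the least. Capitals mark matches to the κB consensus, the degenerate 10-base pattern bound by NF-κB dimers, on either strand.
Nfkbia (chr12:55492598-55492897, minus strand): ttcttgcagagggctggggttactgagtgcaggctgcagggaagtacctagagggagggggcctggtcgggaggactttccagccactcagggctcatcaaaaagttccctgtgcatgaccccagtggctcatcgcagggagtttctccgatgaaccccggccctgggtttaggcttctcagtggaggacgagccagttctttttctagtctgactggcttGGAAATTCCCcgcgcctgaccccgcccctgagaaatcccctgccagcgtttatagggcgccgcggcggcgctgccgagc
Nfkb2, upstream start (chr19:46304487-46304786, plus strand): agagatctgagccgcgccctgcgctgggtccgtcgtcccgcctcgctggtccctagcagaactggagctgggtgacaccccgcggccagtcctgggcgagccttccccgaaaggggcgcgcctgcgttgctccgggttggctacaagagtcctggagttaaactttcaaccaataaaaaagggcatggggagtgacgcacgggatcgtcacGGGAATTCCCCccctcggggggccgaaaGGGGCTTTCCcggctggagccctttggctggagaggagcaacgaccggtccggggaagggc
Nfkbie (chr17:45555450-45555749, plus strand): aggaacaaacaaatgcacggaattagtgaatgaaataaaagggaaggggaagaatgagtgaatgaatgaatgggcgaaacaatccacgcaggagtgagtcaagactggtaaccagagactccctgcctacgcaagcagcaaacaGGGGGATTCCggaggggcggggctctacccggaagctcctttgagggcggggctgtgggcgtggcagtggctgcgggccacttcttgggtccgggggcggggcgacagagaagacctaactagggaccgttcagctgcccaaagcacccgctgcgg
Bcl3 (chr7:19822706-19823005, minus strand): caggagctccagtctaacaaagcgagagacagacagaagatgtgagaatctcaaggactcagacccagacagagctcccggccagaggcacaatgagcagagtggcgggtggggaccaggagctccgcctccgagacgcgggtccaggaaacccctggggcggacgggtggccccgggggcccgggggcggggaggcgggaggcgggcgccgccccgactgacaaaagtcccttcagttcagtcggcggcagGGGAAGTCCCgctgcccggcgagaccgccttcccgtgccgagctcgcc
Rela (chr19:5637291-5637590, plus strand): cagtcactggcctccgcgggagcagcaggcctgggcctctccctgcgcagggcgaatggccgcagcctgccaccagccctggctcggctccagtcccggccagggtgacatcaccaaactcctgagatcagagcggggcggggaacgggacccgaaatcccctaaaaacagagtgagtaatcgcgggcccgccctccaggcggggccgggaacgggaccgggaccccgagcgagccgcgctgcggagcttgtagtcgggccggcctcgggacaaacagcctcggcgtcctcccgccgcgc

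The window of Nfkbia held 1 match, GGAAATTCCC, which lay on the opposite strand from -29 to -20 when the annotated start is counted as 0. That of Nfkbie held GGGGGATTCC from -106 to -97, and that of Bcl3 held GGGAAGTCCC, which matches on both strands, from 2 to 11. Nfkb2 had 3 annotated starts, and its upstream window held 3 matches. The first, GGGAATTCCC, matches on both strands and overlaps the second, GGAATTCCCC, so that they form a single run of capitals. The windows of Rela and Nfkbib held no match, and that of Rel, whose sequence is not printed, held GGGAAATCCC and the overlapping GGAAATCCCC between -92 and -82. In all, 5 of the 7 genes had a match in at least 1 window, against 9.55% of the 27025 genes with a promoter of 300 bases in the table (8.46% of 32851 windows). A match describes the letters only, and binding was not measured.

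Counts on genes summed to 6869667 to 14708099 per sample (median 8986463), of which the 10 genes took 0.0604% to 0.535%. All 10 passed the filter on low counts, which kept 11305 genes. All 8 macrophage markers were detected in every group, at summed levels of 142042 to 178750 normalized counts in unstimulated and LPS-stimulated and 219974 to 304597 in the other samples. The markers Cd3e, Cd3d, Cd3g, Cd8a, Pax5, Ly6g, Mpo and Hbb-bs had 0 reads throughout. Other markers of these cell types had reads, among them Lck with 1 to 45 per sample, S100a8 with 7 to 414 and Camp with at most 14. The stromal marker Dcn had at most 71. The summed level of 6 B cell markers was 323 to 1588 normalized counts in unstimulated BMDMs, 125 to 286 in LPS-stimulated BMDMs and at most 82.0 elsewhere, with 3 or 4 of the 6 markers detected in each group. Ighm had 0 to 1697 reads per sample, Cd22 15 to 86, Cd79b at most 17, and Cd79a and Ms4a1 at most 2 each. The 6 neutrophil markers summed to 7.27 to 12.4 normalized counts in unstimulated, 40.8 to 120.3 in LPS-stimulated and 84.3 to 541.6 in the other samples, almost all of it S100a8. Sums over T cell, dendritic cell, stromal and erythroid markers stayed at or below 82.4. The part of these cells in the results was not tested. Replicate 1 of every group differed from the others in the share of read pairs that could not be assigned to a single gene, with 0.179 to 0.307 per 100 counted pairs against 0.413 to 0.515.

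The transcripts of all 10 genes rose when naive BMDMs met 10 ng/ml LPS. The rise reached 35.4-fold for Nfkbiz and 26.7-fold for Nfkbia and was smallest for Rela, at 2.03-fold. At an adjusted p under 0.05, 24.3% of the 11305 tested genes were higher in LPS-stimulated than in unstimulated BMDMs, and 10 of 10 NF-κB and IκB genes were. At the limit that also asks for an absolute log2 fold change (log2FC) above 2, 6.42% of all genes were differentially expressed genes (DEGs) with higher counts, and 9 of the 10 were, Rela being the exception. The median log2FC of the 10 was 3.40, against -0.09 over all tested genes. The 3 LPS-stimulated samples lay above all 3 unstimulated samples for 10 of 10 genes (26% of all genes). In bulk RNA, fewer cells of a type and less RNA per cell cannot be told apart, so that each value is an average over the culture. Values are normalized counts, which are read counts scaled to the mean effective library size; adjusted p-values were obtained with the quasi-likelihood test of edgeR and corrected by the Benjamini-Hochberg method.

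**Figure D1:**
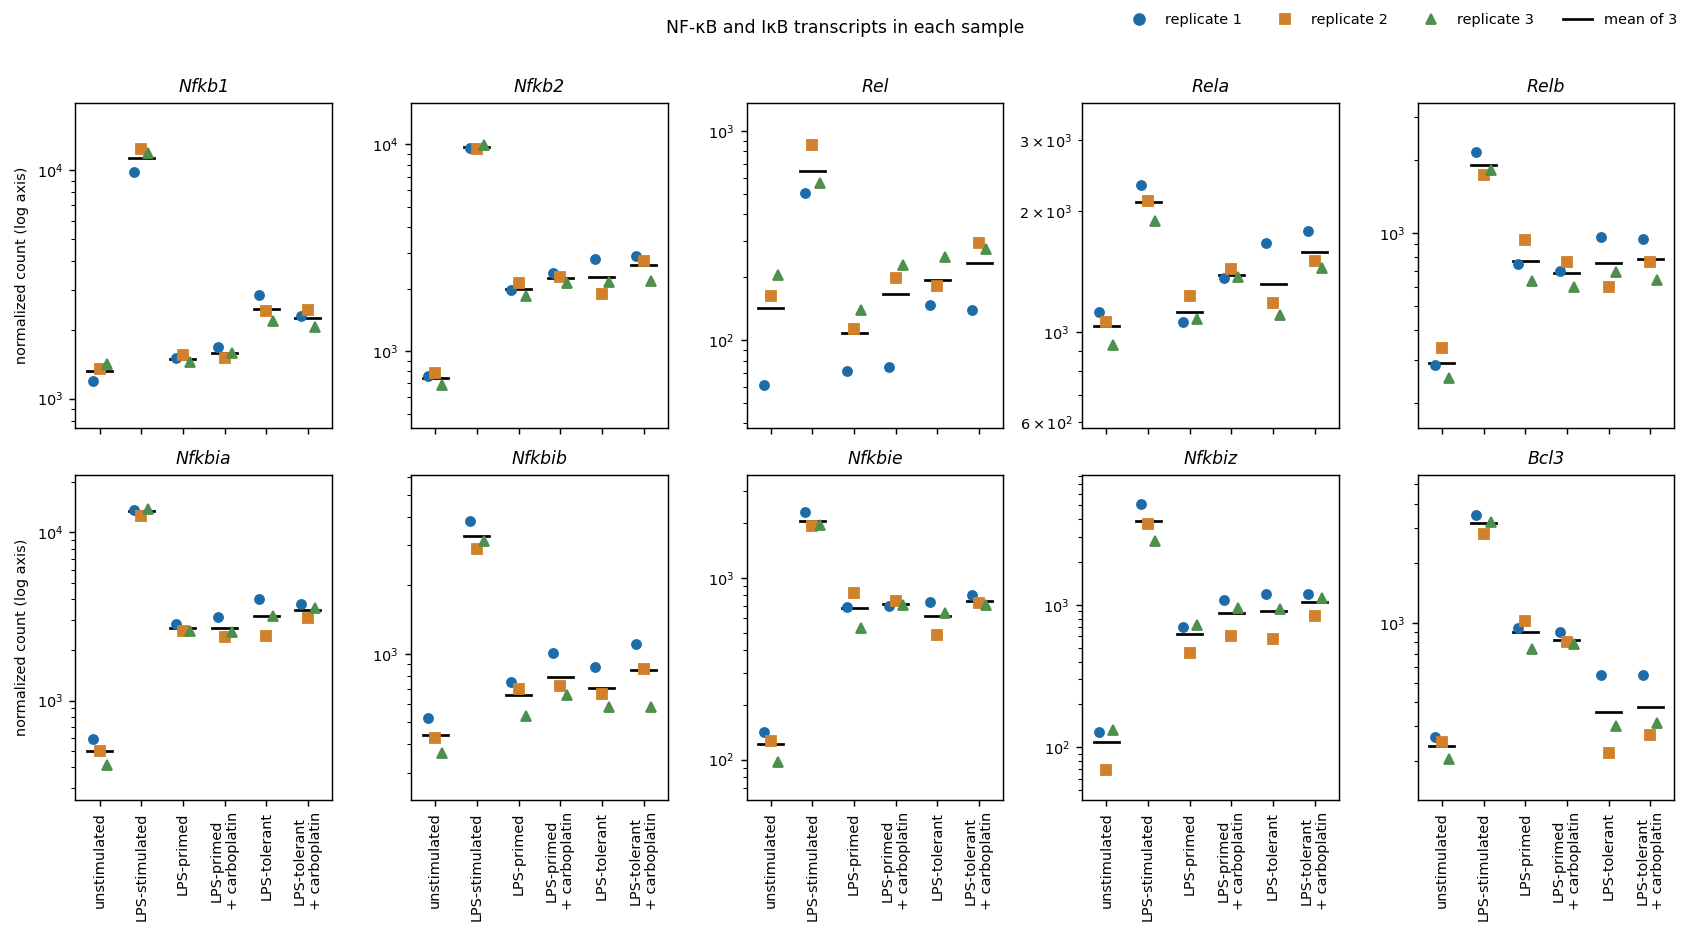
Normalized counts (log axis, a separate range in each panel) of the 10 genes in the 6 groups, with a symbol for each of 3 replicates and a bar at their mean. In every panel the 3 LPS-stimulated samples sit above all other samples, and for Rel the replicate 1 symbol is the lowest of its group in all 6 groups.

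Among the subunits, Nfkb1 (chr3:135290264-135397742 on GRCm39, GENCODE annotation), which encodes p105 and p50, measured 1196, 1343 and 1412 normalized counts in unstimulated replicates 1, 2 and 3. It measured 9817, 12333 and 11828 in LPS-stimulated BMDMs, with no overlap between the groups. The log2FC was 3.10 (SE 0.14, adjusted p = 4.1e-11 by edgeR). Nfkb2 (chr19:46292759-46303812), which encodes p100 and p52, rose further, from 758, 788 and 684 to 9664, 9467 and 9963 normalized counts. Its log2FC was 3.70 (SE 0.16, adjusted p = 2.6e-11 by edgeR), and the LPS-stimulated replicates differed among themselves by little, with an SD of 249.6 on a mean of 9698 (n = 3). Relb (chr7:19339017-19363425), the activating partner of p52, went from 287, 337 and 254 to 2146, 1734 and 1813 normalized counts, again without overlap, at a log2FC of 2.70 (SE 0.21).

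Rela (chr19:5687493-5698161), the p65 subunit that most NF-κB dimers of the classical pathway contain, moved least. It measured 1121, 1064 and 929 normalized counts before LPS. It measured 2327, 2119.8 and 1891 afterwards, so that the groups stayed apart although the log2FC was only 1.02 (SE 0.15, adjusted p = 3.5e-05 by edgeR). Rel (chr11:23686847-23721264), which encodes c-Rel, gave few counts, at 61.2, 163 and 205 normalized counts in unstimulated BMDMs (64, 199 and 225 reads). LPS-stimulated BMDMs had 507, 857 and 563. The log2FC of Rel was 2.17 with an SE of 0.44, the largest SE of the 10 genes in this comparison (adjusted p = 0.000613 by edgeR), and its replicate 1 was the lowest sample of both groups.

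Among the cytoplasmic inhibitors, Nfkbia (chr12:55535332-55539432), which encodes IκBα, showed the widest change. It measured 591, 498 and 413 normalized counts in unstimulated BMDMs. In LPS-stimulated BMDMs it measured 13641, 12615 and 13809.5. The log2FC was 4.74 (SE 0.20, adjusted p = 2.6e-11 by edgeR). Nfkbie (chr17:45866585-45874661), which encodes IκBε, rose from 141, 126 and 96.3 to 2313.5, 1925 and 1962 normalized counts, a log2FC of 4.09 (SE 0.21). Nfkbib (chr7:28457486-28466937), which encodes IκBβ, rose from 522, 425 and 365 to 3843, 2897 and 3126, a log2FC of 2.91 (SE 0.25). Nfkbib overlaps Sirt2 and Ccer2 on the opposite strand, and the strand option of the counting is not given in the sources used here. Sirt2 measured 1784 ± 51.3 normalized counts in unstimulated and 1622 ± 196 in LPS-stimulated BMDMs (SD, n = 3), and Ccer2 was at or near 0. Annotated noncoding RNAs also lie opposite Nfkb1, Nfkb2, Rela, Nfkbia, Nfkbib and Bcl3, and Psd opposite Nfkb2 had at most 20.1 normalized counts.

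Both nuclear IκB genes passed the limit for DEGs. Nfkbiz (chr16:55631738-55659262), which encodes IκBζ, a co-activator for secondary response genes such as Il6, measured 129, 68.8 and 132 normalized counts in unstimulated BMDMs. It measured 5129, 3709.7 and 2828 in LPS-stimulated BMDMs, where the replicates spread widely (SD 1161 on a mean of 3889, n = 3) but stayed above every unstimulated sample. Its log2FC of 5.15 (SE 0.37, adjusted p = 7.8e-09 by edgeR) was the largest of the 10 genes, although its interval of ± 2 SE, 4.42 to 5.88, overlapped that of Nfkbia, 4.33 to 5.14. Bcl3 (chr7:19541553-19557570), whose product associates with p50 and p52 homodimers, rose from 267, 249 and 205 to 3498, 2819 and 3236 normalized counts, a log2FC of 3.73 (SE 0.31). For all 10 genes the LPS-stimulated sample exceeded the unstimulated sample of the same replicate number in 3 of 3 pairs. This follows from the lack of overlap between these groups and is no further evidence.

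**Figure D2:**
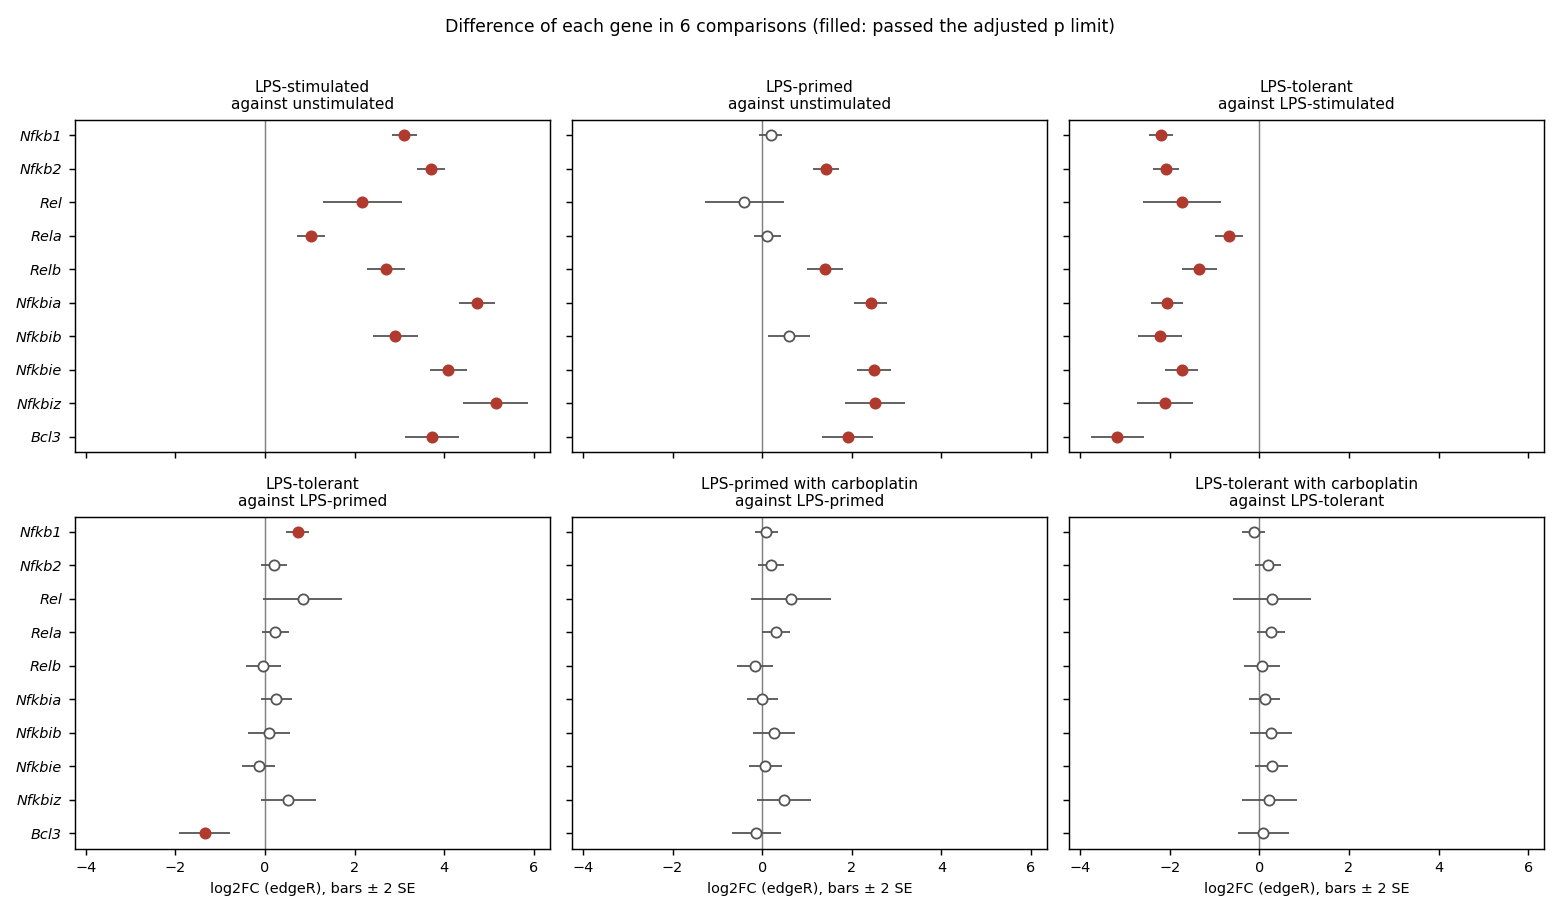
The log2FC of the 10 genes in 6 comparisons, with bars of ± 2 SE from the edgeR fit to all 18 samples and filled symbols where the adjusted p passed the limit of the comparison (0.05, or 0.25 for carboplatin). All 10 symbols are filled in the comparisons of LPS-stimulated with unstimulated and of LPS-tolerant with LPS-stimulated BMDMs, 6 for LPS priming, 2 for LPS-tolerant against LPS-primed and 0 for carboplatin.

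After 24 h at 100 ng/ml LPS, the IκB genes Nfkbia, Nfkbie, Nfkbiz and Bcl3 and the subunit genes Nfkb2 and Relb were still above their unstimulated levels, whereas Nfkb1, Rel, Rela and Nfkbib did not pass the test. In all, 6 of 10 were higher and 0 lower in LPS-primed than in unstimulated BMDMs, against 12.1% of tested genes higher and 13.1% lower, and 3 of them were DEGs (3.41% of all genes). The samples did not overlap for 8 of 10, all but Rel and Rela (18.1% of all genes lay entirely higher). The dose and the time both differ from those of the LPS-stimulated group, so that the levels of these groups are set side by side and not tested as a time course. Nfkbia measured 2869, 2602 and 2583 normalized counts (log2FC 2.42, SE 0.18), Nfkbie 692, 829 and 532 (2.49, SE 0.19) and Nfkbiz 699, 460.3 and 722 (2.52, SE 0.33). These groups did not overlap with unstimulated BMDMs, and their 3 adjusted p-values by edgeR were 4.2e-08, 6.6e-08 and 2.3e-05.

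Bcl3 was at 944, 1025 and 736 normalized counts, a log2FC of 1.91 (SE 0.29) that passed the test but not the limit for DEGs. Nfkb2 measured 1987, 2145 and 1847 and Relb 745, 932 and 632, with log2FC values of 1.42 (SE 0.15) and 1.39 (SE 0.20). Nfkb1 was close to its starting level at 1499.7, 1545 and 1445 normalized counts. Its log2FC was 0.18 (SE 0.13, adjusted p = 0.343 by edgeR), with an interval of -0.08 to 0.44. Rela gave 0.12 (-0.19 to 0.42) and Rel -0.41 (-1.29 to 0.48). Nfkbib was at 754, 699.5 and 532 normalized counts against 522, 425 and 365, higher in 3 of 3 pairs and without overlap. Its log2FC of 0.60 (SE 0.24) did not pass (adjusted p = 0.0744 by edgeR). In edgeR with the replicate number as a block it did (adjusted p = 0.000634), which made 7 of 10 genes higher against 18.9% of all genes under that fit.

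LPS-tolerant BMDMs, which met the same 10 ng/ml LPS for 3 h after priming, had lower levels than LPS-stimulated BMDMs for all 10 genes (18.3% of all tested genes were lower), and 6 of the 10 were DEGs (5.07%). The samples of these groups did not overlap for any of the 10 (23.1% of all genes lay entirely lower). The difference was greatest for Bcl3, at 543, 219 and 303 normalized counts in LPS-tolerant against 3498, 2819 and 3236 in LPS-stimulated BMDMs, a log2FC of -3.17 (SE 0.30, adjusted p = 4.9e-07 by edgeR). Nfkbib (-2.22), Nfkb1 (-2.19), Nfkbiz (-2.11), Nfkb2 (-2.09) and Nfkbia (-2.06) were the other DEGs. Nfkbie (-1.74), Rel (-1.73) and Relb (-1.34) also fell, short of the limit for DEGs. Rela differed least, at 1665, 1186 and 1107 normalized counts in LPS-tolerant BMDMs, a log2FC of -0.68 (SE 0.15, adjusted p = 0.00224 by edgeR).

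Between LPS-primed BMDMs and the same 3 LPS-tolerant samples, 2 of the 10 genes differed. This comparison holds the second LPS exposure together with the change to fresh medium, the lower LPS dose and 3 h more of culture, which cannot be told apart, and it is called the second response below. Nfkb1 rose (3.6% of tested genes were higher) and Bcl3 fell (2.71% were lower). The samples of these groups lay entirely higher for 2 of 10 genes, Nfkb1 and Rel (12.6% of all genes), and entirely lower for 1, Bcl3 (13.6%). Nfkb1 went from 1499.7, 1545 and 1445 to 2832, 2425 and 2176 normalized counts, without overlap, a log2FC of 0.73 (SE 0.13, adjusted p = 0.00288 by edgeR). Bcl3 went from 944, 1025 and 736 to 543, 219 and 303 normalized counts, also without overlap. Its log2FC was -1.35 (SE 0.28, adjusted p = 0.0082 by edgeR). Replicate 1 stood highest in the LPS-tolerant group, and without LPS-tolerant replicate 3 the log2FC of Bcl3 was -1.25 and no longer passed (adjusted p = 0.0502 by edgeR), while the other single samples left out gave -1.79 to -1.10 with the call kept.

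Nfkbia, the most abundant IκB transcript, did not pass in this comparison. Its normalized counts were 2869, 2602 and 2583 in LPS-primed and 3994, 2427 and 3185 in LPS-tolerant BMDMs, so that the groups overlapped. The log2FC was 0.25 with an interval of -0.09 to 0.60 (adjusted p = 0.436 by edgeR). The intervals of Nfkb2 (-0.09 to 0.48), Rela (-0.08 to 0.54), Relb (-0.43 to 0.36), Nfkbib (-0.38 to 0.56), Nfkbie (-0.51 to 0.22) and Nfkbiz (-0.09 to 1.13) likewise held 0. Rel measured 70.9, 113 and 139.7 normalized counts in LPS-primed and 147, 182 and 251 in LPS-tolerant BMDMs, higher in 3 of 3 pairs and without overlap. Its log2FC of 0.84 (SE 0.44) did not pass (adjusted p = 0.292 by edgeR), and edgeR with the replicate block gave 0.86 (adjusted p = 0.0201). The block made 2 of 10 genes higher, against 9.67% of all genes under that fit.

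The second response was smaller than the first, that of naive BMDMs, for 9 of the 10 genes when the difference of the log2FC values was tested as an interaction (13.3% of tested genes were lower by this test), and by more than 2 for 8 of them (4.93%). Bcl3 had the largest difference, -5.08 (SE 0.41), which joins a rise of 3.73 in naive cells to a fall of 1.35 in primed cells on the log2 scale. Among the other IκB genes, the difference was -4.63 for Nfkbiz, -4.48 for Nfkbia, -4.23 for Nfkbie and -2.82 for Nfkbib. Among the subunit genes it was -3.51 for Nfkb2, -2.73 for Relb, -2.38 for Nfkb1 and -0.79 (SE 0.22, adjusted p = 0.0124 by edgeR) for Rela. Rel had a difference of -1.32 (SE 0.61) that did not pass (adjusted p = 0.137 by edgeR) although it was negative in 3 of 3 pairs. In edgeR with the replicate block the value for Rel was -1.42 (adjusted p = 0.0027), which made 10 of 10 lower against 19% of all genes, and without replicate 1 of every group it was -1.17 (adjusted p = 0.0265). The median of the 10 differences was -3.17, against 0.06 over all tested genes.

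**Figure D3:**
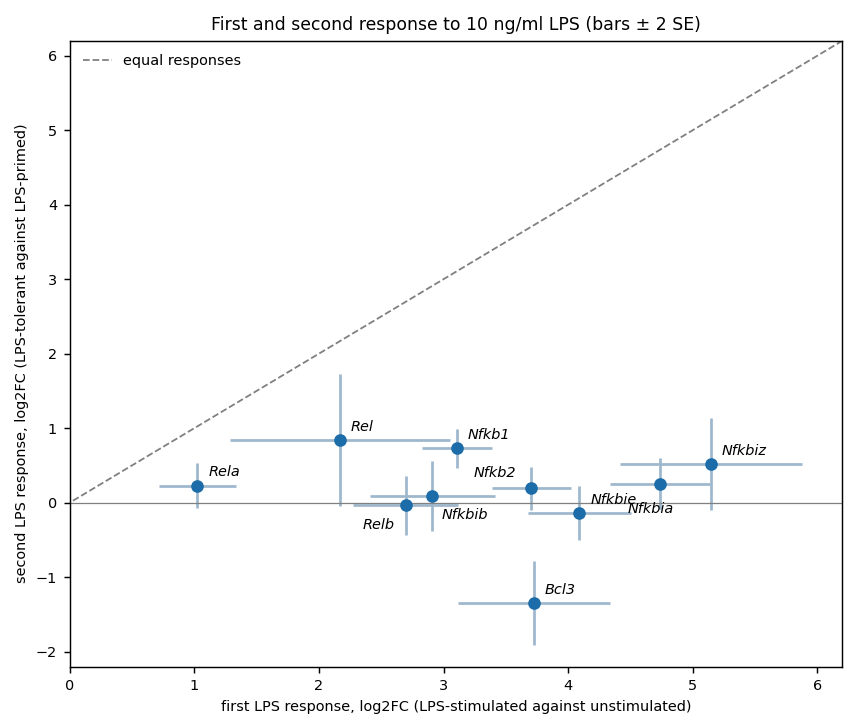
The log2FC of each gene after 10 ng/ml LPS in naive BMDMs (horizontal axis) and in LPS-primed BMDMs (vertical axis), with bars of ± 2 SE and a dashed line where both responses would be equal. All 10 genes lie below the line, with first responses of 1.02 to 5.15 and second responses of -1.35 to 0.84.

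Carboplatin at 25 µM was compared with its absence at both stages at an adjusted p under 0.25. In LPS-primed BMDMs, 0 of 10 genes passed by edgeR (0.0973% of tested genes were higher and 1.11% lower), and 0 had an unadjusted p under 0.05 (6.86% of all genes). The count was also 0 by DESeq2 and by limma-voom. The log2FC values, 8 of 10 above 0 with a median of 0.14 against 0.01 over all tested genes, ran from -0.17 for Relb to 0.64 for Rel. That of Relb was -0.29 without LPS-primed replicate 3 and -0.01 without LPS-primed replicate 2. That of Rel was 0.98 without replicate 1 and 0.36 without replicate 3 of the carboplatin group. Nfkbia measured 3145, 2373 and 2551 normalized counts with carboplatin against 2869, 2602 and 2583 without, with an interval of -0.34 to 0.35 on the log2 scale. Rela was the sole gene whose samples did not overlap, at 1364, 1434 and 1374 against 1060.5, 1229 and 1083 (5.2% of all genes lay entirely higher). Its log2FC was 0.31 (SE 0.15, adjusted p = 0.752 by edgeR). The interval of ± 2 SE, 0.001 to 0.612, left out 0, although the unadjusted p by edgeR was 0.0608. In edgeR the replicate block brought Rela (0.31, adjusted p = 0.243) and Nfkbiz (0.47, adjusted p = 0.227) past the limit of 0.25, so that 2 of 10 genes were higher, against 2.71% of all genes under that fit. Nfkbiz measured 1082, 603 and 952 with carboplatin and 699, 460.3 and 722 without, higher in 3 of 3 pairs with overlapping groups.

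In LPS-tolerant BMDMs, carboplatin again changed 0 of 10 genes by edgeR, DESeq2 and limma-voom (0.239% of tested genes were higher and 1.42% lower by edgeR), and 0 had an unadjusted p under 0.05 (6.73% of all genes). The replicate block left the count of changed genes at 0. The log2FC values, 9 of 10 above 0 with a median of 0.21 against 0.01 over all tested genes, ran from -0.13 for Nfkb1 to 0.28 for Rel. Whether the 10 genes shift together was not tested. With single samples left out, Nfkb1 gave -0.22 (without LPS-tolerant replicate 3) to -0.03 (without LPS-tolerant replicate 1) and Rel 0.10 to 0.54 (without replicates 2 and 1 of the carboplatin group). Nfkbia measured 3743, 3105 and 3540.4 normalized counts with carboplatin against 3994, 2427 and 3185 without, and Bcl3 547, 272 and 311 against 543, 219 and 303. Replicate 1 was the highest Bcl3 sample with and without the drug. Apart from Rel, the outermost ends of the ± 2 SE intervals were -0.47 and 0.83 in this comparison and -0.68 and 1.10 in LPS-primed BMDMs. In LPS-tolerant BMDMs the interval of Nfkb1 was -0.39 to 0.13 and that of Nfkbiz -0.39 to 0.83. With 3 replicates, changes inside the interval of a gene could not be seen, and its width differed between genes. The difference between the effects of carboplatin in LPS-tolerant and in LPS-primed BMDMs passed for 0 of 10 genes by edgeR, DESeq2 and limma-voom, with 0 at an unadjusted p under 0.05 (0% of tested genes passed by edgeR and 1.16% had such a p), with values between -0.36 and 0.22. Both effects rest on comparisons within their own stage and share no samples.

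Ordered by mean level over the 6 groups, LPS-stimulated BMDMs came highest for all 10 genes and differed from the next group for each of them (adjusted p of 0.039 or less by edgeR, the highest being that of Rela). Places in this order were taken for the 10 genes only, so no share over all tested genes stands beside them. Unstimulated BMDMs came lowest for 9 of the 10, the exception being Rel, where LPS-primed BMDMs were lower by less than the spread (log2 difference 0.41, adjusted p = 0.562 by edgeR). They were not told apart from the next group for Nfkb1, Rela, Nfkbib and Bcl3 (adjusted p = 0.343, 0.645, 0.0744 and 0.129 by edgeR). With the replicate block Nfkbib did differ (adjusted p = 0.000634 by edgeR). The 4 groups in between were mostly not told apart from their neighbours. For Nfkbia, for instance, LPS-primed BMDMs with (mean 2689.9) and without carboplatin (2685) and LPS-tolerant BMDMs without (3202) and with it (3463) formed an unbroken row above the unstimulated mean of 501. Among neighbouring groups, Bcl3 alone split in the middle of its order, between 377 ± 149 normalized counts in LPS-tolerant BMDMs with carboplatin and 824 ± 63.8 in LPS-primed BMDMs with carboplatin (SD, n = 3, adjusted p = 0.0474 by edgeR). Its lowest groups, unstimulated at 240.4 ± 31.6 and LPS-tolerant at 355 ± 168, were not told apart (adjusted p = 0.129 by edgeR). For Nfkb1 the middle groups also separated with the replicate block, between LPS-primed with carboplatin (1589.99) and LPS-tolerant with carboplatin (2260.3), where the adjusted p by edgeR was 0.057 without and 0.012 with it. Groups further apart in the order could differ where neighbours did not. For Nfkb1, LPS-primed and LPS-tolerant BMDMs without carboplatin did so in the main fit (log2FC 0.73, adjusted p = 0.00288 by edgeR).

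Levels were compared between genes only per length, as RPKM with the union of annotated exons as the length. On that scale Rela held 53.7% ± 3.37 of the summed level of the 5 subunit genes in unstimulated BMDMs (SD, n = 3) and Nfkb1 and Nfkb2 17.4% ± 2.11 and 15.95% ± 0.337. In LPS-stimulated BMDMs the share of Rela was 20.1% ± 2.11, that of Nfkb2 38.2% ± 1.39 and that of Nfkb1 27.4% ± 3.01. The shares of Rela did not overlap between these groups, at 50.98% to 57.5% and 18.1% to 22.3%. In the 4 groups given LPS for 24 h, Rela was again the largest share with this length, at means of 37.97% to 42.8%. Rel stayed the smallest share, at 1.59% to 3.16%. The order of Nfkb1 and Nfkb2 depended on the length, since the annotated exons of Nfkb1 add up to 12848 bases and its longest transcript to 4802. With the longest transcript as the length, Nfkb1 was the largest share in LPS-stimulated BMDMs at 46.2% ± 3.94 and Nfkb2 stood at 26.99% ± 1.28, and Nfkb1 (33.8%) also exceeded Rela (29.2%) in LPS-tolerant BMDMs.

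Among the IκB genes, Nfkbia held the largest share in every group, at 47.96% ± 0.927 in unstimulated and 68.5% ± 2.98 in LPS-stimulated BMDMs. Nfkbib was the second IκB transcript of unstimulated BMDMs at 34.4% ± 0.439 and came to 13.1% to 15.1% in the other groups. Bcl3 made up 8.12% ± 1.04 in LPS-primed and 2.81% ± 0.646 in LPS-tolerant BMDMs, without overlap. The summed level of the 5 IκB genes was 0.911 ± 0.134 times that of the 5 subunit genes in unstimulated BMDMs and 3.14 ± 0.253 times in LPS-stimulated BMDMs. It was 2.42 ± 0.245 in LPS-primed and 2.19 ± 0.244 in LPS-tolerant BMDMs, and 2.23 ± 0.336 and 2.21 ± 0.217 in their carboplatin counterparts (SD, n = 3 each). The ratio in unstimulated BMDMs, 0.815 to 1.06, did not overlap with that of any other group, and the ratios of the 4 groups given LPS for 24 h overlapped one another. Those of LPS-stimulated (2.89 to 3.39) and LPS-primed BMDMs (2.19 to 2.68) lay apart with the exon union. With the longest transcript as the length they overlapped, at 2.25 to 2.78 and 2.03 to 2.44. These are ratios of transcripts and say nothing of protein.

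**Figure D4:**
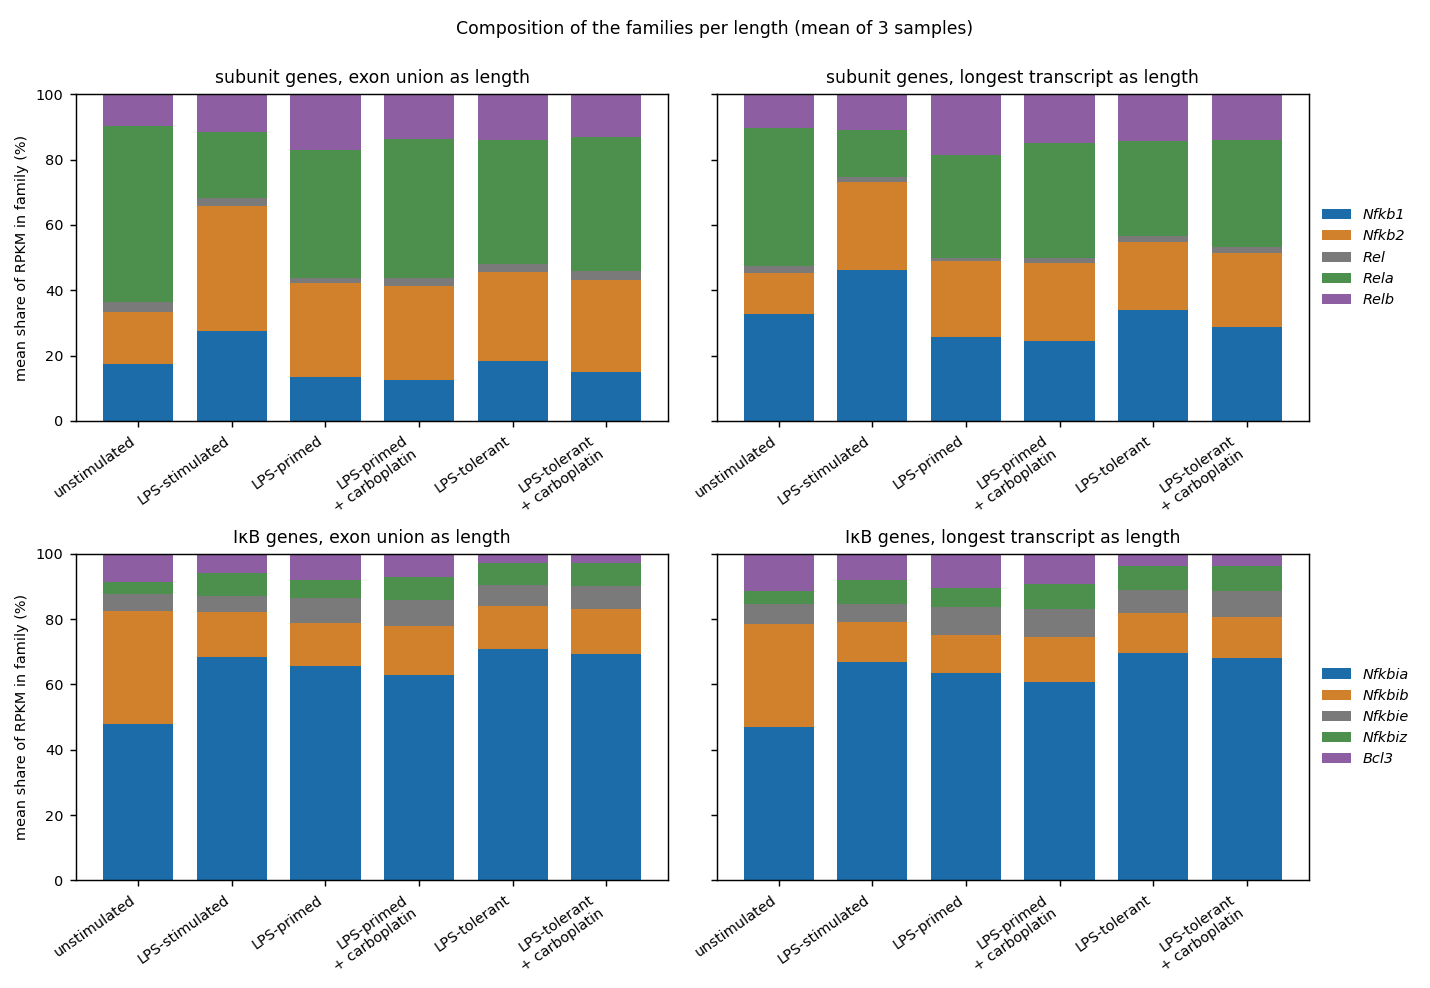
Mean share (%) of each gene in the summed RPKM of the 5 subunit genes (top) and the 5 IκB genes (bottom) in the 6 groups, n = 3, with the exon union (left) or the longest transcript (right) as the length. Rela is the largest subunit share of unstimulated BMDMs in both panels (53.7% and 42.2%), whereas the largest share in LPS-stimulated BMDMs is Nfkb2 on the left and Nfkb1 on the right, and Nfkbia is the largest IκB share throughout.

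Several of the 10 genes differed between replicate numbers in the same way in all 6 groups. Shared deviations were not particular to them. Over all tested genes, the deviations of samples of the same number correlated between groups at a mean of 0.305. How many of all genes deviated in 6 of 6 groups was not counted. Rel was below its group mean in replicate 1 of 6 of 6 groups, by -0.65 on average on the log2 scale, with 55 to 425 reads there against 99 to 1238 in the other replicates. Nfkbia, Nfkbib, Nfkbiz and Bcl3 were above their group means in replicate 1 of 6 of 6 groups, by 0.18, 0.30, 0.32 and 0.30. Nfkbiz was below its group mean in replicate 2 of 6 of 6 groups, by -0.41, and Rela, Relb and Nfkbib were so in replicate 3. Replicate 1 also had the lower share of ambiguous read pairs given above, whose part in these deviations was not tested. Without replicate 1 of every group, the calls of the 10 genes were as before in all comparisons except that Nfkbib passed in LPS-primed against unstimulated BMDMs (log2FC 0.63, adjusted p = 0.0367 by edgeR) and Rel in the difference of the responses.

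**Figure D5:**
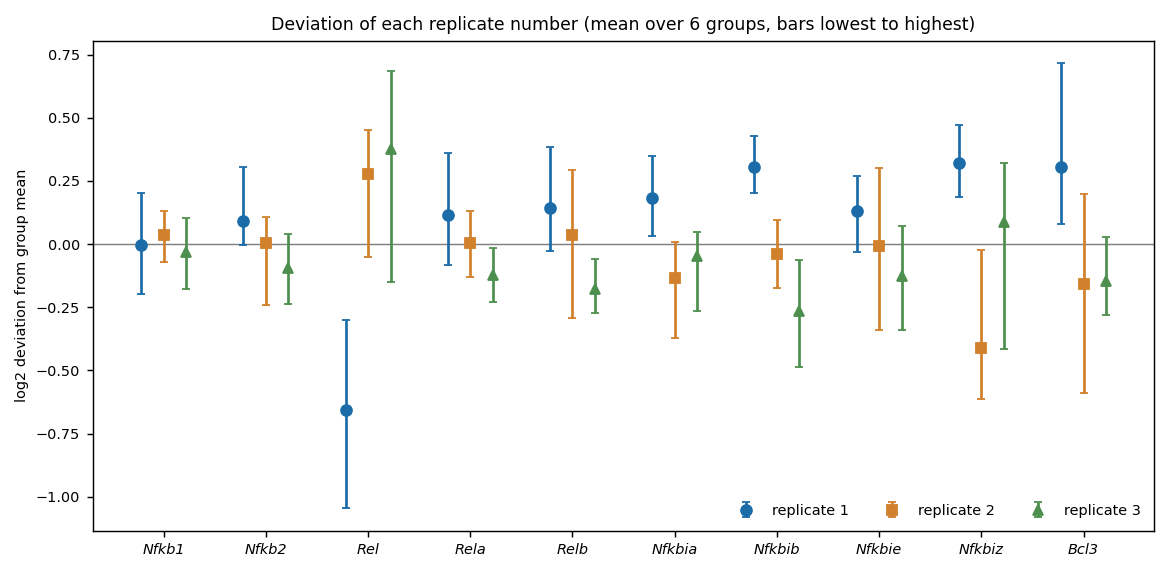
Log2 deviation of replicates 1, 2 and 3 from the group mean for the 10 genes, as the mean over 6 groups with bars from the lowest to the highest group. For Rel the whole bar of replicate 1 lies below 0 (mean -0.65), and for Nfkbia, Nfkbib, Nfkbiz and Bcl3 it lies above 0.

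Genes that act on the 10 were read from lists of the pathway. Of 11 genes for IKK and its upstream kinases, 6 were higher and 2 lower in LPS-stimulated than in unstimulated BMDMs (24.3% and 26.9% of all tested genes), with a median log2FC of 0.67. Map3k8, which encodes the kinase Tpl2 that is held by p105, rose by 2.83 (SE 0.28) and Ikbke, an IKK-related kinase, by 2.32 (SE 0.19). Ikbkb, the catalytic subunit that phosphorylates IκBα, rose by 1.02 (SE 0.13) and Chuk, the other catalytic subunit, by 0.69 (SE 0.27). Map3k14, which encodes NIK, the kinase that starts p100 processing, fell by 1.22 (SE 0.195), and Tab1, an adaptor of TAK1, fell by 1.73 (SE 0.30). In LPS-primed against unstimulated BMDMs, 2 were higher (12.1% of all genes), Ikbke (1.51) and Tbk1 (0.54), and 5 with the replicate block (18.9%). In LPS-tolerant against LPS-stimulated BMDMs, 4 were lower (18.3% of all genes), led by Map3k8 (-2.92) and Ikbkb (-1.17), and 3 were higher (16.2%), led by Ikbkg (0.59) and Tab1 (0.84). In LPS-tolerant against LPS-primed BMDMs, 0 of the 11 passed by edgeR (3.6% of all genes were higher and 2.71% lower), and 1 was lower with the block (8.32%). An unadjusted p under 0.05 was found for 2 of the 11, a count for which no share over all genes was taken. The difference between the responses was lower for 5 (13.3% of all genes), led by Map3k8 (-3.52) and Ikbke (-1.996), and higher for Map3k14 (0.92; 10.5% of all genes). With the block, Tab1 (1.07) was higher as well (17.2% of all genes).

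Of 10 TRAF, cIAP, LUBAC and SCF genes, which build the ubiquitin scaffolds upstream of IKK or carry IκBα to degradation, 7 were higher (24.3% of all genes) and 1 lower (26.9%) in LPS-stimulated BMDMs, and 3 were lower with the block (33.8%). Birc3 (cIAP2) rose by 2.92 (SE 0.15) and Traf2 by 1.94 (SE 0.20). The F-box genes that recognise phosphorylated IκBα moved apart, Fbxw11 rising by 1.75 (SE 0.26) while Btrc had a log2FC of -0.69 (SE 0.19). In LPS-primed BMDMs 3 were higher than in unstimulated BMDMs (12.1% of all genes), led by Birc3 (2.20), and in LPS-tolerant against LPS-stimulated BMDMs 6 were lower (18.3%), led by Birc3 (-1.25) and Birc2 (-1.39). In LPS-tolerant against LPS-primed BMDMs 2 of the 10 were lower (2.71% of all genes), Birc3 (-0.54) and Btrc (-0.80), and the replicate block gave 2 higher (9.67%) and 4 lower (8.32%). The difference between the responses was lower for 6 (13.3% of all genes), led by Birc3 (-3.45) and Traf2 (-1.99), and for 7 with the block (19%).

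Of 10 feedback inhibitors, 7 were higher (24.3% of all genes) and 2 lower (26.9%) in LPS-stimulated BMDMs, with a median log2FC of 2.64, and 6 were DEGs with higher counts (6.42%). Tnfaip3, which encodes the ubiquitin-editing enzyme A20, rose by 7.02 (SE 0.20), and Tnip1, which encodes an A20-binding protein, rose by 3.85 (SE 0.20). Pdlim2, which encodes a ligase for nuclear p65, fell by 1.36 (SE 0.27), and Otulin, a deubiquitinase for linear chains, fell by 0.53 (SE 0.17). In LPS-primed BMDMs 6 were higher than in unstimulated BMDMs (12.1% of all genes), led by Tnfaip3 (2.69) and N4bp1 (2.84), and 1 was lower (13.1%), or 2 with the block (19.8%). In LPS-tolerant against LPS-stimulated BMDMs 8 were lower (18.3%), led by Tnfaip3 (-3.15) and Tnip3 (-3.92), and 1 was higher (16.2%). In LPS-tolerant against LPS-primed BMDMs 1 of these 10 was called, Tnfaip3, which rose by 1.17 (SE 0.15, adjusted p = 0.000203 by edgeR; 3.6% of all genes were higher), and 3 were higher (9.67%) and 1 lower (8.32%) with the replicate block. The difference between the responses was lower for 7 (13.3% of all genes; 8 and 19% with the block) and higher for 2 of the 10 (10.5%), from -5.84 for Tnfaip3 to 1.77 for Pdlim2.

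Of 20 classical NF-κB target genes, 19 were tested and 18 were higher in LPS-stimulated BMDMs (24.3% of all genes), all of them DEGs (6.42%). The list was made of known targets and chosen with earlier results of these data known, so that its counts are a description only. The smallest adjusted p was that of Icam1, an adhesion molecule, at 4.91 (SE 0.20), followed by those of Cd40, a co-stimulatory receptor, at 6.73 (SE 0.29) and of Sod2, the mitochondrial superoxide dismutase, at 4.69 (SE 0.20), which were equal. In LPS-primed BMDMs 14 of the 19 were higher (12.1% of all genes). In LPS-tolerant against LPS-stimulated BMDMs, 10 were lower (18.3%) and 2 higher (16.2%), led by Cd40 at -5.73 (SE 0.27) and by Lcn2, an iron-binding antibacterial protein, at 3.52 (SE 0.35), and the replicate block made 15 lower (24.7% of all genes). In LPS-tolerant against LPS-primed BMDMs, Tnf was higher by 2.92 (SE 0.30, adjusted p = 4.2e-05 by edgeR) and Gadd45b lower at -0.67 (SE 0.19, adjusted p = 0.0425 by edgeR), while 17 did not pass (3.6% of all genes were higher and 2.71% lower), and with the block 4 were higher (9.67%) and 2 lower (8.32%). The difference between the responses was lower for 17 of the 19 (13.3% of all genes), and with the block higher for Bcl2l1 (1.13; 17.2%). The 2 further IκB genes, Nfkbid (IκBNS) and Nfkbil1, were called once in these comparisons, when Nfkbid rose by 1.85 (SE 0.41) in LPS-stimulated BMDMs. In edgeR with the block, Nfkbid also fell in LPS-tolerant against LPS-stimulated BMDMs (-1.13, adjusted p = 0.000238). It then passed as higher in LPS-tolerant than in LPS-primed BMDMs (0.98, adjusted p = 0.00619 by edgeR) and as lower in the difference of the responses (-0.90, adjusted p = 0.0297 by edgeR). Carboplatin changed 0 genes of these lists at either stage by edgeR (0.0973% and 1.11% of all genes were higher and lower in LPS-primed, 0.239% and 1.42% in LPS-tolerant BMDMs), and 1 feedback inhibitor in LPS-primed BMDMs had an unadjusted p under 0.05 (6.86% of all genes). The block made 2 feedback inhibitors, Tnip1 and Tnip2, and 3 targets, Il6, Cxcl1 and Cxcl2, higher in LPS-primed BMDMs (2.71% of all genes), and these 5 are named after their values were seen.

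The transcripts whose pattern over the 18 samples was most like that of the 3 genes with the widest range were found by Pearson correlation of log2 levels, given as a description, with the other members of the family set aside. Nfkbiz was nearest to Ptgs2 (0.98), which encodes the inducible cyclooxygenase, then Flrt3 (0.97) and Traf1 (0.97). Nfkbia was nearest to Ehd1 (0.99), Mt2 (0.99) and Adora2b (0.98), and Nfkbie to Ehd1 (0.98), Cdc42ep2 (0.98) and Socs3 (0.98). Within the family, Nfkbia and Nfkbie were the closest pair (0.98), closer than Adora2b was to Nfkbia or Socs3 to Nfkbie, and Nfkbiz was closer to Nfkbia (0.98) than to Flrt3, whereas Rel was the gene farthest from 8 of the others, with the lowest value, 0.46, against Bcl3. These values share the 18 libraries.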

How the data were processed

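RNA-Seq of mouse BMDMs was analysed in 18 samples of 6 groups. Per the labels and the methods of the study, the authors sequenced stranded mRNA libraries as pairs, mapped the reads with HISAT2 (build GRCm39) and used HTSeq for counting, and the deposited values are these raw counts. Their versions, the strand setting and the gene annotation are not given in the sources used here. HTSeq summary rows, 41.5% to 46.9% of read pairs, were left out. Depth was 6869667 to 14708099 counts per sample, so that values of Rel, at 55 to 1238 reads, carry the largest counting error.

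Genes were filtered with filterByExpr (minimum count 10, minimum total 15), scaled by TMM and fitted with 6 group means in edgeR 4.0.16 under R 4.3.3 (prior count 0.125). SE is the log2FC divided by the root of F. Genes were called at an adjusted p under 0.05, or 0.25 for carboplatin as in the study, with an absolute log2FC above 2 for DEGs. DESeq2 1.42.0 and limma 3.58.1 (voom), other scalings and filters, left-out samples and a replicate block were alternatives, and the code was tested on simulated data. Deviations from the group means correlated between samples of the same number in 44 of 45 pairs at over 0.1 (mean 0.305, lowest 0.0585 between LPS-stimulated and LPS-primed replicate 3). All pairs were over 0.1 in the 6 comparisons of 2 groups, from which both differences are built. There the numbers were used to pair the samples, but only in counts over pairs and in the replicate block. The main fit, which gave the calls unless the block is named, held no term for the replicate number.

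All 10 genes are named. Of each pathway list the genes with the smallest adjusted p in each direction are named, plus those acting directly on an IκB, and of the 3 genes with the widest range the 3 most correlated genes. Of the cell type markers, 2 are not reported here. The genes and lists were chosen with earlier results of these data known. Whether replicates came from separate animals is not stated, so p-values measure the spread between these samples.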

Additional observations from a re-analysis of the deposited data

Results flagged for a closer look

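The response of LPS-primed BMDMs to further LPS in fresh medium differed from that of naive BMDMs for 9 of the 10 genes, by an interaction term in edgeR at an adjusted p under 0.05 (13.3% of all tested genes were lower). With the replicate block it was 10 of 10, against 19% of all genes. The differences, second minus first on the log2 scale, were -2.38 for Nfkb1, -3.51 for Nfkb2, -0.79 for Rela and -2.73 for Relb among the subunit genes. Among the IκB genes they were -4.48 for Nfkbia, -2.82 for Nfkbib, -4.23 for Nfkbie, -4.63 for Nfkbiz and -5.08 for Bcl3. All 9 were negative in 3 of 3 replicate numbers, a count that was not taken over all tested genes.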

How the results depend on the processing

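No called value of the 10 genes changed direction under any alternative that was run. DESeq2 and limma-voom gave the same number of the 10 genes higher and lower as edgeR in all 8 comparisons. With the replicate block, the number of genes higher in LPS-tolerant than in LPS-primed BMDMs was 2 instead of 1 (Nfkb1 and Rel) and that with carboplatin in LPS-primed BMDMs was 2 instead of 0 (Rela and Nfkbiz). The block also added Nfkbib in LPS-primed against unstimulated BMDMs and Rel in the difference of the responses, and changed no other call of the 10 genes in the 8 comparisons. The number of genes lower in LPS-tolerant than in LPS-primed BMDMs was 0 to 1 when single samples were left out, the 0 being without LPS-tolerant replicate 3. With the longest transcript as the length, Rela held 42.2% and Nfkb1 32.8% of the subunit level in unstimulated BMDMs, Nfkb1 46.2% and Nfkb2 27.0% in LPS-stimulated BMDMs, and the ratio of IκB to subunit levels there was 2.50. Scaling by library size alone shifted all tested genes, whose median in LPS-stimulated against unstimulated BMDMs became -0.43 instead of -0.09. With 3 replicates per group, changes inside the intervals given could not be seen, and the intervals of Rel were the widest. Leaving out replicate 1 of every group was added after the data were seen.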
